A study of Rattus norvegicus with 10 samples.

Results

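The 10 genes described here encode membrane transporters of zinc and manganese: the importers Slc39a1, Slc39a2, Slc39a4, Slc39a5, Slc39a8 and Slc39a14, and the exporters Slc30a1, Slc30a2, Slc30a4 and Slc30a10. They are 10 of the 23422 genes in the count table and 10 of its 24 genes of the SLC39 and SLC30 families, and they were found by gene symbol. The set was chosen by name with the values of the diet comparison already known, so the differences between diets below are a description of these 10 genes and carry no test. All 10 passed the filter on low counts, Slc39a2 and Slc30a10 through their control libraries, where their counts were high.

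The libraries came from epithelial cells of the last segment of the colon, labelled distal, of male Wistar Munich rats that weighed 284 to 347 g when placed in single metabolic cages (the sources used here give no age). All 12 rats ate standard rodent chow for 3 days, after which 6 stayed on it (control) and 6 were given it with sodium cholate, a primary bile acid as its salt, mixed in at 1% w/w (cholate). The diets lasted 10 days. Epithelial cells were shaken off inverted colon sacs in a calcium-free buffer with EDTA, a chelator of divalent metal ions, and all libraries share that step. For sequencing, the 5 rats per group whose RNA was most concentrated were taken, so the choice of rats was not random. Control rats were numbered 1, 2, 5, 6 and 9, and rats on cholate 3, 4, 7, 8 and 11, with 14337356 to 45285762 counts per library.

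SLC39 proteins, also called ZIP proteins, carry zinc into the cytosol from outside the cell or from vesicles, and some of them also carry manganese and iron. SLC30 proteins, also called ZnT proteins, carry zinc out of the cytosol, either across the plasma membrane or into vesicles, while Slc30a10 is best known as an exporter of manganese. In the intestine these carriers set how much dietary metal is taken up and how much is returned to the lumen. The zinc sensor Mtf1 is a transcription factor that, in mice, switches on metallothionein genes and Slc30a1 through short DNA elements called metal response elements.

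The start regions of 4 genes are shown. They are Slc39a2, the transporter with the largest difference between diets, Slc30a1, and the metallothionein genes Mt1 and Mt4. Mt4 is the metallothionein that was called lower on cholate. Each window holds 300 bases, from 250 before to 50 after the gene's start, from RefSeq on build GRCr8, and capitals mark matches to the core of the metal response element, TGCACNC or TGCGCNC, read on either strand. The windows are Slc39a2 at chr15:27063987-27064286 on the plus strand, Slc30a1 at chr13:106021769-106022068 on the plus strand, Mt1 at chr19:10832926-10833225 on the minus strand and Mt4 at chr19:10871782-10872081 on the minus strand.
Slc39a2: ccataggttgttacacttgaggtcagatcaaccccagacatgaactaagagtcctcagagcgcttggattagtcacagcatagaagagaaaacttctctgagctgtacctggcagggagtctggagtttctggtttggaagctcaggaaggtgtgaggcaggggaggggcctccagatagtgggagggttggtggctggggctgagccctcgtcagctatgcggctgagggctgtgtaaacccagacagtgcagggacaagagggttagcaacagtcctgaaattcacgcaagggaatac
Slc30a1: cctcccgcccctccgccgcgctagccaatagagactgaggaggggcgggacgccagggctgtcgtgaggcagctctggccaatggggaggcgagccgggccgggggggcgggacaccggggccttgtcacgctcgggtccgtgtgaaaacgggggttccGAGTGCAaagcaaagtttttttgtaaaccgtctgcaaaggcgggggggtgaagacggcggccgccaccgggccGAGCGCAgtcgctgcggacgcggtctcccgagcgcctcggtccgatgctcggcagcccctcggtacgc
Mt1: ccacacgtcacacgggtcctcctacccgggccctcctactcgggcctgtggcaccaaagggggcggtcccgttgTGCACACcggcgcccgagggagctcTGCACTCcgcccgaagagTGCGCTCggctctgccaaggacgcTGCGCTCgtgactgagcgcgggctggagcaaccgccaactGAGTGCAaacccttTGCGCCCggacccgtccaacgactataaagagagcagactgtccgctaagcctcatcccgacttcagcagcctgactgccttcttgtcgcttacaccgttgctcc
Mt4: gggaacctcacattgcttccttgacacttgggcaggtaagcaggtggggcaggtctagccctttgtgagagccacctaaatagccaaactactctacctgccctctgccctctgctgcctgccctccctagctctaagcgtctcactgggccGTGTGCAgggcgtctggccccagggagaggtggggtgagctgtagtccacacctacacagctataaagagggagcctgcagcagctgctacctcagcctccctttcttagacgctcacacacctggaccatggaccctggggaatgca

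The Slc39a2 window held 0 matches, the Slc30a1 window 2, the Mt1 window 6 and the Mt4 window 1, and no matches overlapped. The windows of the metallothionein genes Mt2A and Mt3, not shown, held 4 and 3. In Slc30a1 the matches began at -91 and -18 relative to the start, and in Mt4 the match began at -98. Of all 33469 windows of this length in the table, 24.2% held at least 1 match, 6.36% at least 2 and 0.0388% at least 6. RefSeq windows were matched for 7 of the 10 transporters, 8 windows in all, and 4 windows held a match, those of Slc39a1, Slc30a1, Slc30a4 and 1 of the 2 of Slc30a2. A match is a run of letters and not a measured binding site.

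The comparison of diets asked how dietary cholate changed the transporter RNAs. Slc39a2 and Slc30a10 were much lower on cholate, while the means of Slc39a1, Slc39a4, Slc39a8 and Slc30a1 differed little between diets. Slc39a14 and Slc30a2 were lower and Slc39a5 and Slc30a4 higher in mean on cholate, with overlapping ranges. By the rule of the fit over all genes (edgeR quasi-likelihood test, adjusted p under 0.01 and fold over 2), 2 of the 10 were called lower and 0 higher. Over all 12385 genes tested, 2.12% were called lower and 1.1% higher. The same 2 transporters had all 5 cholate values below all 5 control values, a pattern that 6.8% of all genes tested showed. Since the set was chosen on this contrast, nothing is read from these shares. The median log2 fold change of the 10 genes was -0.034, against -0.014 over all genes tested.

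Slc39a2 (Entrez 305846, rn6 chromosome 15, 28295044 to 28297688, plus strand), a zinc importer of the plasma membrane best known from skin, had 219, 337, 186, 313 and 187 counts in control rats 1, 2, 5, 6 and 9. In cholate rats 3, 4, 7, 8 and 11 it had 3, 5, 3, 3 and 3 counts. The RNA was readily counted in every control library and was at or near the limit of counting in every cholate library. Scaled as CPM, counts relative to the TMM library size, the control values were 7.68, 12.9, 6.94, 8.56 and 10.2. The cholate values were 0.111, 0.103, 0.0803, 0.188 and 0.228 CPM. The groups were far apart, and the differences among cholate values rest on 3 to 5 counts each. The log2 fold change was -6.14 (SE 0.34), a fold of 70.7. Slc39a2 kept its call in all 23 alternative settings, with values from -6.56 to -5.37. The setting with a looser limit on p and any fold reuses the same fit, so the call could not be lost there. As the set was chosen on this contrast, the tally only describes how far the value moved. The ratio of pooled CPM was 76.2, with an exact 95% interval from 47.4 to 131.3 that covers counting error only. In a bulk sample, fewer cells of a type and less RNA per cell cannot be told apart.

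Slc30a10 (Entrez 289353, chromosome 13, 103396295 to 103406759, plus strand), the manganese exporter, had 129, 251, 172, 175 and 117 counts in the control rats, in the order above. In the cholate rats it had 13, 49, 12, 0 and 0 counts. Cholate rat 4, the deepest library, held most of the reads of its group, and cholate rats 8 and 11 held none. The control values were 4.52, 9.62, 6.42, 4.79 and 6.37 CPM. The cholate values were 0.480, 1.01 and 0.321 CPM in rats 3, 4 and 7 and 0 in rats 8 and 11, where 3 counts would be 0.188 and 0.228 CPM. The groups did not overlap. The log2 fold change was -3.92 (SE 0.70), a fold of 15.1, and the ratio of pooled CPM was 11.9 (exact 95% counting interval 9.38 to 15.3). Of 10 fits with 1 rat omitted, 6 no longer called Slc30a10, since the adjusted p passed 0.01. Omitting control rat 1, 2, 5 or 6 gave log2 fold changes of -4.03, -3.73, -3.90 and -4.01, and omitting cholate rat 3 or 7 gave -3.97 and -3.83. Omitting cholate rat 4 kept the call and moved the value furthest, to -4.71. Of the coding bases of Slc30a10, 543 overlap LOC100911719, a long noncoding RNA gene on the opposite strand. The sources used here do not say whether strand was used in counting, so reads of the pair may not have been told apart.

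**Figure D1:**
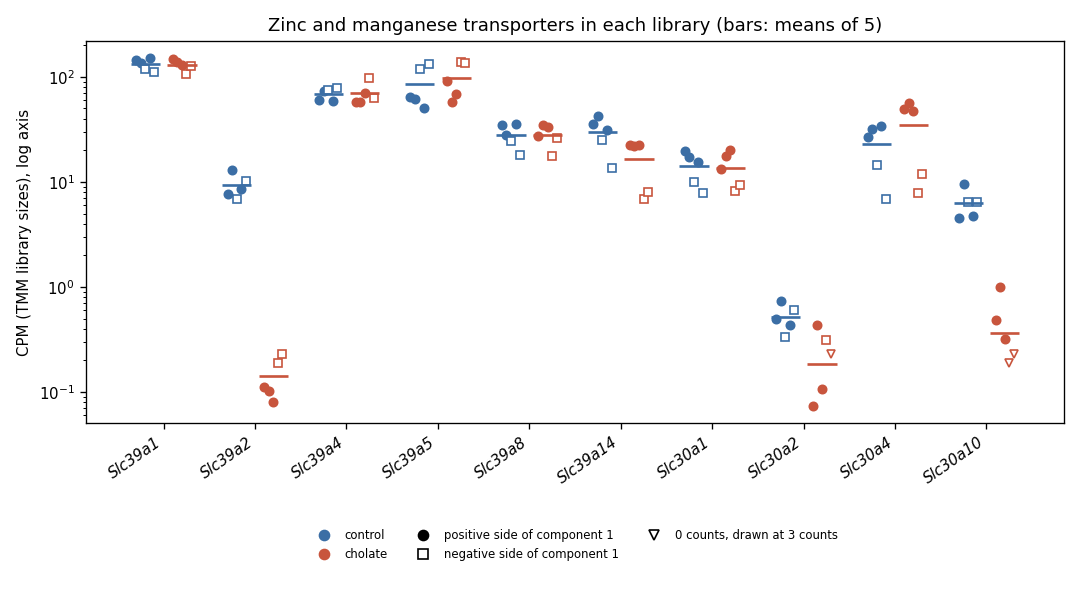
CPM on a log axis for the 10 transporters, 1 symbol per library, with bars at the means of 5 rats. Filled circles are libraries on the positive side and open squares on the negative side of principal component 1, and open triangles are counts of 0 drawn at the level of 3 counts. Slc39a2 and Slc30a10 are the only 2 of the 10 whose cholate values all lie below the control values.

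The summed levels of smooth muscle markers and of endothelium and blood markers were also lower on cholate, while those of immune cells overlapped between diets. The summed level of 5 smooth muscle markers was 42.1 to 61.5 CPM in control and 7.48 to 13.2 CPM in cholate libraries. Of these 5 markers, 2 were tested and 1, Des, was called lower. Des and Myh11 carry the difference in this sum. Acta2 was at 0 to 0.0383 CPM in control and 0 to 0.607 CPM in cholate libraries, and Actg2 at 0 to 0.230 and 0.0268 to 0.531 CPM. The summed level of 5 endothelium and blood markers was 3.92 to 7.93 CPM in control and 1.37 to 3.53 CPM in cholate libraries. Of these, 2 were tested and 1, Vwf, was called lower, at 2.94 to 4.29 CPM in control and 0.759 to 1.77 CPM in cholate libraries. The others, Pecam1, Cdh5, Kdr and Alas2, overlapped between diets. Summed markers were at 4.10 to 11.3 CPM in control and 4.45 to 15.7 CPM in cholate libraries for T and NK cells, at 1.27 to 5.23 and 1.57 to 5.63 CPM for B and plasma cells, and at 199.7 to 272.3 and 210.8 to 268.5 CPM for macrophages and dendritic cells, with 0 genes called in these 3 lists. Cd14, at 192.6 to 264.9 CPM in control and 195.4 to 257.5 CPM in cholate libraries, carries most of the macrophage and dendritic cell sum. The other markers of that list were at 8.75 CPM or less in every library. Of 10 colon epithelium markers, 2, Krt20 and Car1, were called higher. The sum was 16880 to 23620 CPM in control and 26490 to 38530 CPM in cholate libraries. Epcam, Cdh1 and Krt18 went the other way, with log2 fold changes of -0.10, -0.16 and -0.33, and were not called. Over all genes tested, 1.1% were called higher and 2.12% lower. Hoxb13, a marker of the distal colon, was at 517.7 to 779.5 CPM in control and 332.9 to 739.4 CPM in cholate libraries. Of the 4 distal colon markers, 3 were tested and 1, Hoxd12, was called lower (log2 fold change -1.99, edgeR adjusted p = 0.00116). Summed enteroendocrine markers were at 203 to 272.8 CPM in control and 276 to 522.5 CPM in cholate libraries, with Pyy and Gcg called higher. Chga, Chgb and Neurod1 had log2 fold changes of -0.08, 0.02 and -0.02 and were not called. Insl5 was at 0 in every library. The summed goblet, tuft and fibroblast markers overlapped between diets, with 0 genes called. The fibroblast marker Col1a1 was at 1.64 to 3.68 CPM in control and 0 to 0.801 CPM in cholate libraries. Others of that list had their highest values on cholate. Col3a1 was at 0 to 0.218 CPM in control and 0 to 1.58 CPM in cholate libraries. Dcn was at 0 to 0.163 and 0 to 0.349 CPM, and Lum at 0 and 0 to 0.390 CPM. The part of these markers in the lower Slc39a2 and Slc30a10 was not tested.

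The importers known for carrying manganese and iron as well as zinc differed from each other. Slc39a14 (chromosome 15, 51982872 to 52029841, minus strand) was at 35.2, 42.5, 25.3, 31.1 and 13.5 CPM in control rats. In cholate rats it was at 22.3, 22.1, 22.5, 6.82 and 8.05 CPM. The ranges overlapped because control rat 9 lay among the cholate rats. The log2 fold change was -0.85 (SE 0.40), which was not called. Slc39a8 (chromosome 2, 241028851 to 241092584, plus strand) was at 34.5, 28.2, 24.7, 35.3 and 18.0 CPM in control and 27.2, 34.9, 33.2, 17.5 and 26.0 CPM in cholate rats. Its groups overlapped over nearly their whole range, with a log2 fold change of -0.02 (SE 0.23).

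Slc39a4, the zinc importer of the enterocyte's luminal membrane, whose loss in humans causes zinc deficiency, did not differ in mean. It was at 69.0 ± 9.01 CPM in control and 69.4 ± 16.8 CPM in cholate rats (SD, n = 5 each), a log2 fold change of 0.01 (SE 0.17). Cholate rat 8, at 98.0 CPM, lay above all control rats, and cholate rats 3 and 4 lay just below the lowest of them. Slc39a1, a zinc importer expressed in most tissues, was at 132.7 ± 17.0 CPM in control and 129.4 ± 15.1 CPM in cholate rats, a log2 fold change of -0.04 (SE 0.13). Slc39a5, a zinc importer of the basolateral membrane, was at 64.8, 61.6, 118.6, 50.7 and 132.4 CPM in control rats. In cholate rats it was at 91.0, 58.1, 69.3, 137.7 and 134.4 CPM. Both diets held high and low rats, and the log2 fold change was 0.20 (SE 0.33).

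Among the exporters, Slc30a1, which carries zinc across the plasma membrane, was at 19.6, 17.2, 9.96, 15.6 and 7.84 CPM in control rats. In cholate rats it was at 13.4, 17.6, 20.0, 8.14 and 9.41 CPM. The 2 groups covered nearly the same range, with a log2 fold change of -0.03 (SE 0.32). Slc30a4, which carries zinc into vesicles, was at 26.8, 31.5, 14.4, 34.1 and 6.91 CPM in control rats. In cholate rats it was at 49.7, 55.7, 46.9, 7.83 and 11.9 CPM. Cholate rats 3, 4 and 7 lay above every control rat, while cholate rats 8 and 11 lay among the lowest, and the log2 fold change of 0.60 (SE 0.58) was not called. Slc30a4 overlaps LOC108350451 on the opposite strand by 4 coding bases. Slc30a2, a vesicular zinc transporter known for zinc secretion into milk, had only 9 to 19 counts in control and 0 to 21 in cholate libraries. Its log2 fold change of -1.33 (SE 0.58) was not called, and cholate rat 4, at 0.431 CPM, lay within the control range. Without cholate rat 4 the value was -2.05, also not called.

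**Figure D2:**
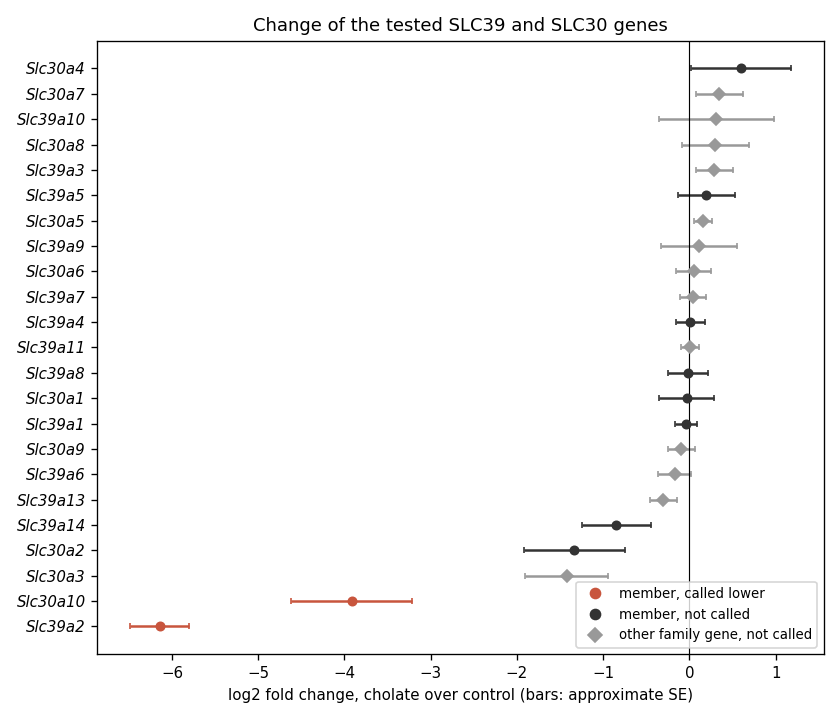
Log2 fold change of cholate over control for the 23 tested SLC39 and SLC30 genes, with approximate standard errors. Circles are the 10 transporters described here, diamonds the other family genes, and the 2 genes called lower, Slc39a2 at -6.14 and Slc30a10 at -3.92, are in red.

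Compared per length, as CPM per kb of coding length, Slc39a1 stood highest in control rats at 136.1 ± 17.4 (SD, n = 5). Slc39a5 followed at 50.6 ± 21.9, Slc39a4 at 34.9 ± 4.56, Slc39a8 at 20.3 ± 5.19 and Slc39a14 at 18.0 ± 6.66. Slc30a4 came next at 17.6 ± 9.02, then Slc39a2 at 9.95 ± 2.55, Slc30a1 at 9.21 ± 3.25 and Slc30a10 at 4.47 ± 1.43. Slc30a2 was lowest at 0.459 ± 0.134. Of the 9 pairs of neighbours in this order, only Slc39a1 over Slc39a5, Slc39a4 over Slc39a8 and Slc30a10 over Slc30a2 had ranges that did not overlap. On cholate Slc39a2 was the lowest of the 10 at 0.153 ± 0.0675 CPM per kb, next to Slc30a2 at 0.164 ± 0.159 and Slc30a10 at 0.255 ± 0.293, whose ranges all overlapped. The levels of the 10 genes moved by less than 1 SD under 2 other scalings, in 40 of 40 values.

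**Figure D3:**
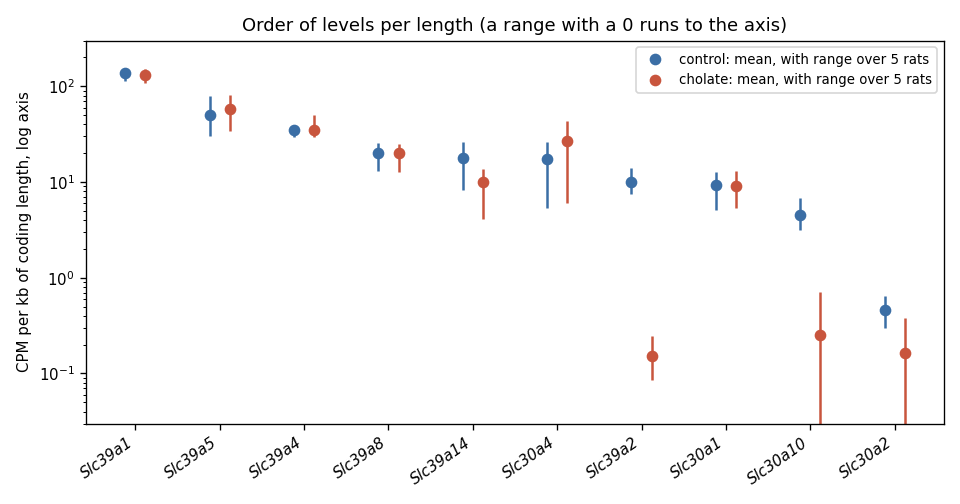
CPM per kb of coding length on a log axis for the 10 transporters, ordered by the control mean. Points are means and lines run from the lowest to the highest of 5 rats, with lines that include a 0 drawn to the axis. Slc39a2 is the 7th of 10 in control and the 10th in cholate rats.

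The libraries differed along an axis that is not diet. Principal component 1 of all genes tested held 46.8% of the variance and put control rats 5 and 9 and cholate rats 8 and 11 on its negative side, with control rat 5 near 0. Component 2, with 30.6%, separated the diets. The 4 libraries of the negative side had 14337356 to 25957175 counts, and the 6 others 25004778 to 45285762. No label names a batch for this axis, and what sets it was not tested. Genes with at least 4773 exonic bases were lower on the negative side, with a median log2 difference of -0.56, and genes with at most 1773 were higher, with a median of 0.42, against 0.08 over all genes tested.

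Of the 10 transporters, 5 took values on the negative side that did not overlap those on the positive side, 4 lower and 1 higher. Over all genes tested, 15.8% were lower and 11.3% higher in this way, and the sides were drawn from all genes tested, so nothing is read from the count. Slc30a4, with 5411 exonic bases, was at 6.91 to 14.4 CPM on the negative and 26.8 to 55.7 CPM on the positive side. Slc30a1 was at 7.84 to 9.96 against 13.4 to 20.0 CPM. Slc39a8, at 17.5 to 26.0 against 27.2 to 35.3 CPM, and Slc39a1, at 106.7 to 125.6 against 130.0 to 151.0 CPM, were also lower on the negative side. Slc39a5 went the other way, at 118.6 to 137.7 on the negative and 50.7 to 91.0 CPM on the positive side. Slc30a1 has 2610 exonic bases, Slc39a8 3778, Slc39a1 2460 and Slc39a5 3189, all between the length limits given above. Summed goblet cell markers were at 8026 to 21900 CPM on the negative and 4660 to 10390 CPM on the positive side, and their part in these differences was not tested.

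Within each side, 4 of the 10 transporters, Slc39a2, Slc30a10, Slc39a14 and Slc30a2, were lower on cholate without overlap, as were 15.1% of all genes tested. On the positive side, with 3 rats per diet, Slc30a10 was at 4.52 to 9.62 CPM in control and 0.321 to 1.01 CPM in cholate rats. On the negative side, with 2 per diet, it had 289 counts in control and 0 in cholate rats, at least 62.1-fold lower against a floor of 3 counts over the cholate libraries. Slc39a14 was at 31.1 to 42.5 against 22.1 to 22.5 CPM on the positive side and 13.5 to 25.3 against 6.82 to 8.05 CPM on the negative side. With the side as a term its log2 fold change was -0.96 (SE 0.19), against -0.85 (SE 0.40) without it, and the fold remained under the limit of the call. The sides were drawn from these same counts, and the fits by side were added after seeing the data. Their smaller SEs are therefore only a description. Slc30a2 was at 0.438 to 0.728 against 0.0738 to 0.431 CPM on the positive side and 0.336 to 0.599 against 0 to 0.313 CPM on the negative side, values that rest on at most 21 counts per library. Slc30a4 was higher on cholate on the positive side, at 46.9 to 55.7 against 26.8 to 34.1 CPM, a log2 fold change of 0.75 (SE 0.12), but overlapped on the negative side, where the value was -0.14 (SE 0.40). Slc39a5 was higher on cholate on the negative side, at 134.4 to 137.7 against 118.6 to 132.4 CPM, and overlapped on the positive side. Of all genes tested, 24.3% were higher without overlap on the positive and 28.1% on the negative side.

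**Figure D4:**
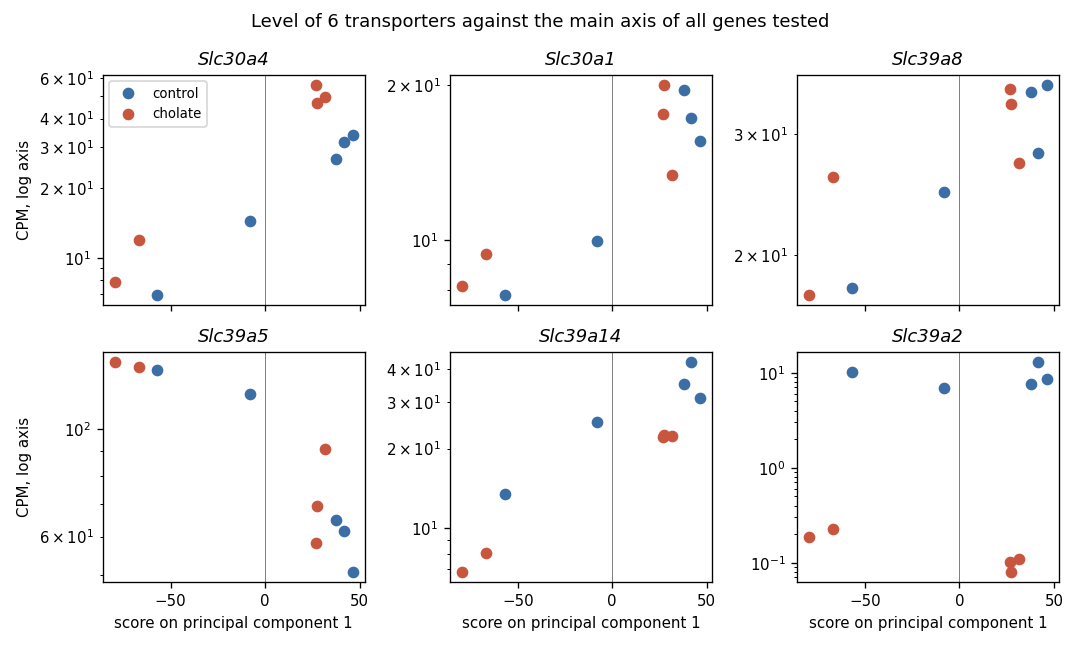
CPM on log axes against the score on principal component 1 for 6 transporters, 1 point per library, coloured by diet. Slc30a4, Slc30a1, Slc39a8 and Slc39a14 have their lowest values among the libraries at the left, Slc39a5 its highest, and Slc39a2 separates by diet at both ends.

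The genes with profiles most like Slc39a2 and Slc30a10 were named by the smallest root mean square difference of centred log2 CPM over the 10 libraries. For Slc39a2 they were Bpifb6 (0.605), Dpysl4 (0.704), Speg (0.769), Aldh1a1 (0.872) and Lingo1 (0.939). For Slc30a10 they were Akap12 (0.815), Dpysl4 (1.02), Shc2 (1.03), Palm2 (1.11) and Gpnmb (1.15). All were lower on cholate, with log2 fold changes from -6.54 for Dpysl4 to -2.48 for Gpnmb, and since both transporters carry a large diet difference the measure favours genes that do too. The chromosomal neighbours did not share the size of the change. Mettl17, 1174 bases from Slc39a2, had a log2 fold change of -0.48 (edgeR adjusted p = 0.358). Ndrg2, 8131 bases away on the other side, had one of -0.64 (edgeR adjusted p = 0.00341), below the fold limit. Eprs and Lyplal1, on either side of Slc30a10, had 0.26 (edgeR adjusted p = 0.147) and -0.03 (edgeR adjusted p = 0.929).

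Other genes of metal handling were examined as 5 lists with 43 genes, of which 38 were tested, 1 was called lower and 0 higher. Over all genes tested, 2.12% were called lower and 1.1% higher, so nothing is read from the few calls in these lists. At an adjusted p under 0.05 and any fold, 3 of the 38 passed, all lower, against 1704 of the 12385 genes tested. Of the 7 other SLC39 genes tested, 0 were called, and the smallest edgeR adjusted p was 0.225 for Slc39a13, which acts near the Golgi apparatus (log2 fold change -0.30, SE 0.16). Slc39a12 was listed at 0 in every library. Of the 6 other SLC30 genes, 0 were called, and the smallest edgeR adjusted p was 0.0732 for Slc30a3, known from synaptic vesicles (log2 fold change -1.42, SE 0.48). The median log2 fold change was 0.04 over the other SLC39 genes and 0.10 over the other SLC30 genes.

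Metallothioneins, small proteins that bind zinc and copper in the cytosol, were mostly lower in mean on cholate. Mt4, a form known from stratified epithelia in mice, was at 1.68, 2.45, 3.51, 2.05 and 5.28 CPM in control rats. The cholate values were 0.332, 0.329, 0.0536, 0.876 and 0.380 CPM. The groups did not overlap, and Mt4 fell by 3.01 on the log2 scale (SE 0.57, edgeR adjusted p = 0.00768), lower in 5 of 5 cholate rats. Omitting any 1 of the 5 control rats, or cholate rat 3, 4, 7 or 11, ended this call and left 0 of the other metal genes called. Mt1 was at 75.8, 85.5, 50.2, 24.4 and 120.6 CPM in control rats. Cholate rats had 12.6, 9.84, 18.0, 40.3 and 49.4 CPM, and it overlapped through control rat 6. Its log2 fold change of -1.46 (SE 0.52, edgeR adjusted p = 0.0867) was not called.

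Mt2A, the other main form, had a mean of 29.1 ± 17.2 CPM in control and 9.30 ± 9.08 CPM in cholate rats (log2 fold change -1.67, SE 0.67, edgeR adjusted p = 0.126). Mt1m, an intronless gene on chromosome 20 whose counts may be shared with Mt1, had a mean of 221.1 ± 108.1 CPM in control and 85.8 ± 75.8 CPM in cholate rats (log2 fold change -1.37, edgeR adjusted p = 0.124). Mt3, known from brain, was at 0.514 ± 0.152 and 0.590 ± 0.286 CPM. Both Mt1 and Mt2A were higher on the negative side of component 1 by 1.14 and 1.42 on the log2 scale, at the 97.9 and 99.0 percentiles of all genes tested. Mtf1 was listed at 0 in all 10 libraries, and why was not tested. A row at 0 need not mean that the RNA was absent. Slc40a1, of the manganese list, had a row at 0 in every library and another with 2790 counts in control and 2792 in cholate libraries. Of the manganese list, Slc11a2, which imports iron and manganese, was the gene with the smallest adjusted p. It was at 63.6, 78.9, 50.2, 55.3 and 62.1 CPM in control rats. The cholate rats had 31.2, 30.1, 32.9, 35.1 and 40.4 CPM. The groups did not overlap, and the log2 fold change of -0.87 (SE 0.15, edgeR adjusted p = 0.00445) lay under the fold limit of the call. Of the iron and copper list, Slc31a2, a copper transporter, had the smallest adjusted p (log2 fold change -0.71, SE 0.18, edgeR adjusted p = 0.0264).

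**Figure D5:**
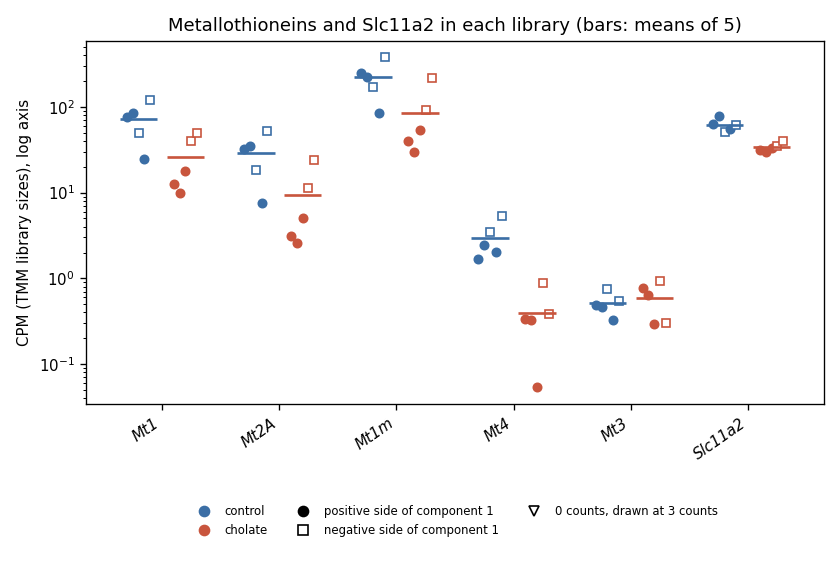
CPM on a log axis for 5 metallothioneins and Slc11a2, 1 symbol per library, with bars at the means of 5 rats. Filled circles are libraries on the positive side and open squares on the negative side of principal component 1. Mt4 and Slc11a2 do not overlap between diets, and Mt1, Mt2A and Mt1m overlap.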

How the data were processed

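RNA of 10 rat libraries was sequenced. Strand-specific poly(A) libraries were run on an Illumina HiSeq, per the labels' protocols. Per the submitters' processing notes, bcl2fastq 1.8.4, BWA 0.7.12-r1039, edgeR 3.16.2 and build rn6 were used. Which program counted the reads, and with what strand setting, the sources used here do not say. Raw counts per gene, as deposited, were used for every result. Its deposited normalized signal was not used. Its deposited gene length equals the coding bases in all 23422 rows, and 6442 rows had no reads.

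The 10 genes, the metal and marker lists and the tests were chosen with earlier results of these data known. Genes were filtered with filterByExpr, scaled by TMM and fitted with the edgeR 4.0.16 quasi-likelihood test (R 4.3.3, robust, diet as the only term), with Benjamini-Hochberg adjustment over 12385 genes. Alternatives used DESeq2 1.42.0 and limma 3.58.1, among others. The method was tested on simulated data, with changes placed only in genes with a mean of at least 5 CPM over all libraries. Slc39a2, Slc30a10 and Mt4 lie below that mean, so the simulation does not cover them. Each of them passed the filter on low counts through its control libraries. SEs are approximate, from the log2 fold change divided by the root of F. The common biological coefficient of variation was 34.3%. Components were taken from log2 CPM with a prior count of 2. A count of 0 allows up to 3 counts, from 0.0616 CPM in cholate rat 4 to 0.228 CPM in cholate rat 11, which covers counting error only. Named genes were the 10 members, called or lowest-p genes of each list, all metallothioneins, Mtf1 and the 5 nearest profiles of each called member. Mt1m was named by that rule although it is not on the metal lists. Sequences are from RefSeq.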

Additional observations from a re-analysis of the deposited data

How the results depend on the processing

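Slc39a2 was called in all 23 alternatives, among them the looser limit on the same fit, where the call could not be lost. No called value changed direction, while 4 values near 0 that were not called (Slc39a1, Slc39a4, Slc39a8 and Slc30a1) changed sign in some. Slc30a4, at 0.60 and not called, turned to -0.14 in the 4 libraries of the negative side of component 1. The members called fell from 2 to 1 under glmTreat against a fold of 2, where Slc30a10 (-3.92) lost the call, and ran from 1 to 2 with 1 rat left out, with Slc30a10 at -4.71 to -3.63. The other metal genes called, 1 in the fit as reported, were 0 with at least 5 CPM in a diet, 4 with limma-voom quality weights (Mt1, Mt2A, Mt4 and Slc30a3), 3 at an adjusted p under 0.05 and any fold, 0 under glmTreat and 0 to 1 with 1 rat left out. All genes called, 398 as reported, were 788 with DESeq2, 1157 with quality weights, 1704 at an adjusted p under 0.05 and any fold, 50 under glmTreat and 168 to 450 with 1 rat left out. Omitting control rat 1, 2 or 6 gave 192, 168 and 200, and omitting cholate rat 4 or 7 gave 207 and 221. Settings added after seeing the data gave, for all genes and the other metal genes, 1003 and 2 in the 6 libraries of the positive side of component 1 and 112 and 0 in the 4 of the negative side, and for all genes 829 with the side as a term. The causes of these shifts were not tested. Slc30a2 had too few counts for the filter of 5 CPM and for the fit of 4 libraries. Scaling moved the median log2 fold change of all genes to between -0.076 and 0.001. No paired analysis was possible because the control and cholate rats have no number in common. Depth limits Slc39a2, Slc30a2 and Slc30a10 on cholate, where most libraries hold few or no counts.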
